A study of Mus musculus with 6 samples.

Results

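Canonical Wnt signalling was followed through 10 listed mouse genes: 5 targets of the pathway (Axin2, Nkd1, Lgr5, Lef1 and Tcf7) and 5 secreted antagonists (Dkk2, Dkk3, Sfrp1, Sfrp2 and Wif1). Members were all probe sets of the deposited array table that the platform annotation assigns to a listed symbol alone. That gave 20 of 45037 probe sets for 9 genes of 18193, with 10 probe sets for 4 targets and 10 for 5 antagonists, and Tcf7 was not analysed here. The measured RNA came from 6 tumours grown under the back skin of male mice from GLMT1 cells, a GRS/A tumour line named after a lung metastasis. The groups were 3 tumours from GRS/A-TgH(TnC) hosts, which are deficient in tenascin-C (TNKO), and 3 from GRS/A hosts with intact tenascin-C (WT), with 1 tumour per mouse as far as the labels say. Hosts in both groups were 8 weeks old at the start and 10 weeks old in the sample labels. Both groups carried the same cell line, which the labels do not describe as lacking tenascin-C, so the genotypes differ in the host's cells only.

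Wnt ligands bind Frizzled receptors together with LRP co-receptors, which stabilises beta-catenin and lets it act with TCF/LEF factors on target genes. Axin2 and Nkd1 are targets whose products feed back on the pathway inside the cell, and the secreted antagonists act outside it. In skin, the pathway is known for its part in hair follicle growth, and secreted antagonists are commonly made by stromal cells.

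The deposited values carry very small differences between arrays. Across the 6 arrays the median range of a probe set was 5.46e-06 log2 units, and 249 (0.553%) ranged over more than 0.01. Values are therefore given in millionths of a deposited log2 unit, and differences also in residual SDs, the within-group spread of the same probe set. None of them can be read as a fold. Array medians ran from 6.567 to 6.57. Tnc itself stood at 8.797, 8.822 and 8.832 in TNKO tumours 1 to 3, against 9.014, 9.043 and 8.995 in WT tumours 1 to 3 (limma, adjusted p = 0.0537). Fewer cells of a type and less RNA per cell cannot be told apart in whole tumours. Among the markers of the cells these tumours could hold, the hair follicle genes set 1 tumour apart: the mean level of 9 such genes was 6.13, 6.16 and 7.75 in TNKO tumours 1 to 3, against 6.14, 6.12 and 6.12 in WT tumours 1 to 3. Skeletal muscle genes, such as the myosin gene Myh1, were low in TNKO tumours 1 and 2, with mean levels of 6.31, 6.41 and 7.10 in TNKO tumours 1 to 3, against 7.00, 7.15 and 6.94 in WT tumours 1 to 3. Krt8, a simple epithelial keratin, stood at 11.4 in all 6 tumours and the collagen gene Col1a2 at 13.7, while Krt19 was dim at 6.07. Adipocyte genes had mean levels of 7.74, 7.61 and 7.28 in TNKO tumours 1 to 3, against 7.38, 7.11 and 7.03 in WT tumours 1 to 3. The other lists varied less, with mean levels of 10.83 to 10.84 for fibroblast, 7.03 to 7.04 for interfollicular epidermis, 7.82 for mammary luminal epithelium, 7.20 for endothelial and 9.54 for smooth muscle and pericyte genes over the 6 tumours. The interfollicular epidermis mean was highest in WT tumour 3: 7.0294, 7.0294 and 7.0300 in TNKO tumours 1 to 3, against 7.0292, 7.0299 and 7.0404 in WT tumours 1 to 3.

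Promoter sequences are shown for 4 genes chosen from the results. Nkd1, whose groups did not overlap in its brightest probe set either, is not among them. Dkk2 and Sfrp2 are the antagonists whose groups did not overlap in their brightest probe set, with opposite signs, and Lef1 and Wif1 both stood highest in TNKO tumour 3. Each window is the 250 bases before the annotated start in RefSeq's GRCm38.p6 annotation, 5′ to 3′, and for Lef1 the most upstream of its starts was taken. Capitals mark CTTTG, the core letters that TCF/LEF factors recognise, and TATAAA, the TATA box letters, each on either strand.
Dkk2, chr3:132085042-132085291, plus strand: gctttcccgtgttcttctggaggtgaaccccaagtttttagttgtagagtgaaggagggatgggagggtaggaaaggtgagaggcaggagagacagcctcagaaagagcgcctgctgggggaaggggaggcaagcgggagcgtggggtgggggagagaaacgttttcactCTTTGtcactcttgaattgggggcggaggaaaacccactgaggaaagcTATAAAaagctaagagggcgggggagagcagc
Sfrp2, chr3:83766071-83766320, plus strand: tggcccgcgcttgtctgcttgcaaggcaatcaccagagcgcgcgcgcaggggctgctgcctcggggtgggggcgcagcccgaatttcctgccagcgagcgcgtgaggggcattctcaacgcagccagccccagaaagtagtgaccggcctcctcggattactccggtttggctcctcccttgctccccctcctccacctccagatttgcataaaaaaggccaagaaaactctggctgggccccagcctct
Lef1, chr3:131110047-131110296, plus strand: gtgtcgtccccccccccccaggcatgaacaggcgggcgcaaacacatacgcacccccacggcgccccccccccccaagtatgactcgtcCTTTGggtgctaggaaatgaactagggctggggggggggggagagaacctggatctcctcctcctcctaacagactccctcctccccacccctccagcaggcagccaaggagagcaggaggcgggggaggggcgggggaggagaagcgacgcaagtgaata
Wif1, chr10:121033754-121034003, plus strand: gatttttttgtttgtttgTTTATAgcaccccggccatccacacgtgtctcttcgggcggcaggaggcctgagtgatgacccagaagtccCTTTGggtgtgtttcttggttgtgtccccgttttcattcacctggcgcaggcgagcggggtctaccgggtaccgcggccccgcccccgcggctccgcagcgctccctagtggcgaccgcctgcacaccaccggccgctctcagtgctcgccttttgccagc
Dkk2 holds CTTTG beginning 80 bases before its start and TATAAA beginning 32 bases before it, and Sfrp2 holds neither. CTTTG occurred in 15958 of 32851 such windows of all genes (48.6%) and TATAAA in 4063 (12.4%), so a match is common. The longer CTTTGAT, in 3.21% of all windows, was in 0 of the 11 windows of the 7 members with an entry in the table, which include Axin2, Nkd1 and Tcf7. Of these 7 members 3 held CTTTG (Dkk2, Lef1 and Wif1), and all 3 are among the 4 shown. The windows of the targets Axin2, Nkd1 and Tcf7 held 0 CTTTG. The matches are descriptions of letters only.

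No member passed the test of host genotype. By limma with Benjamini-Hochberg adjustment over all probe sets, 0 of the 20 member probe sets had an adjusted p under 0.05, against 79 of 45037 probe sets (0.175%), and the adjusted p-values of members ran from 0.0849 to 0.959. At an unadjusted p under 0.05 there were 4 of 20, against 20.3% of all probe sets, and of the 4, 3 were higher (9.53% of all) and 1 lower (10.8% of all) in TNKO hosts. These calls depended on the scaling: 0 of 20 remained after quantile normalization and 0 with array medians subtracted. The count over all probe sets fell from 9144 to 593 and 87 with those scalings. The TNKO and WT tumours did not overlap in 5 of 20, against 28.0% of all probe sets, with 4 higher (14.2% of all) and 1 lower (13.8% of all), and in 7 of 20 without TNKO tumour 3, where the background was 40.9%. By brightest probe set they did not overlap in 4 of 9 genes, against 26.1% of all genes. The counts over probe sets lie near the background.

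**Figure D1:**
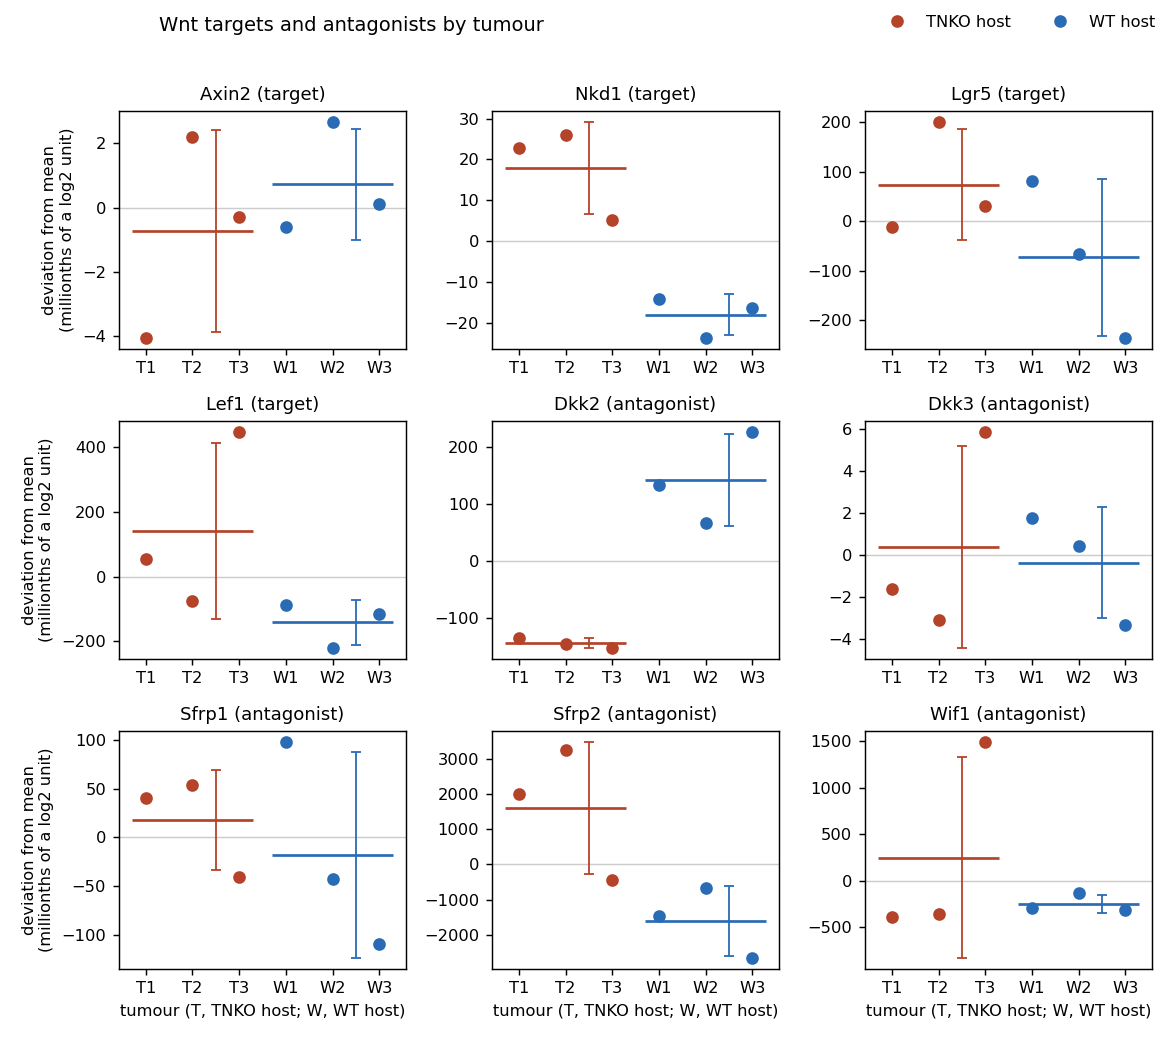
Deposited value of the brightest probe set of each of the 9 genes in each tumour, as the deviation from the mean of the 6 arrays in millionths of a log2 unit, with TNKO tumours (T) left of WT tumours (W). Lines are group means and bars 1 SD (n = 3 each); scales differ between panels. Dkk2 lies lower and Nkd1, Lef1 and Sfrp2 higher in all 3 TNKO tumours, and TNKO tumour 3 stands alone for Wif1.

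Among the targets, Axin2, the feedback scaffold of the beta-catenin destruction complex and a widely used readout of canonical signalling, hardly differed. Its brighter probe set lay 0, 6.23 and 3.75 millionths above its lowest array (7.36) in TNKO tumours 1 to 3, against 3.43, 6.71 and 4.15 in WT tumours 1 to 3. The groups overlapped, with the lowest tumour a TNKO one and the highest a WT one. The difference was -1.44e-06 (SE 1.94e-06, limma, adjusted p = 0.737), and 1.87e-07 in the dimmer probe set (adjusted p = 0.887).

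Nkd1, which encodes an inhibitor that binds Dishevelled, had the largest target difference in residual SDs. Its brightest probe set stood 46.3, 49.7 and 28.8 millionths above its lowest array (7.13) in TNKO tumours 1 to 3, against 9.51, 0 and 7.42 in WT tumours 1 to 3. All 3 TNKO tumours were above all WT tumours. The difference was 3.60e-05 (SE 6.64e-06), or 4.13 residual SDs, and its adjusted p of 0.104 (limma) missed the threshold. The 3 dimmer Nkd1 probe sets overlapped between groups, with differences of 1.12, 0.61 and -0.12 residual SDs, so the gap was seen with 1 of the 4 probe sets.

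Lgr5, a receptor for R-spondins that marks stem cells in gut and hair follicle, ranged widely within both groups. It stood 225, 437 and 267 millionths above its lowest array (7.09) in TNKO tumours 1 to 3, against 318, 170 and 0 in WT tumours 1 to 3. The groups overlapped, with WT tumour 3 the lowest (difference 0.000147, SE 0.000105, limma, adjusted p = 0.5). The size of the difference rested on single tumours: it was 6.56e-05 without WT tumour 3, 8.32e-05 without TNKO tumour 2 and 0.000225 without WT tumour 1.

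Lef1, a TCF/LEF transcription factor that is also a target, was highest in TNKO tumour 3. Its brighter probe set stood 274, 147 and 669 millionths above its lowest array (6.23) in TNKO tumours 1 to 3, against 132, 0 and 105 in WT tumours 1 to 3. The groups did not overlap, by a margin that TNKO tumour 2 made narrow. The difference was 0.000284 (SE 0.000152, limma, adjusted p = 0.376), and 0.000131 without TNKO tumour 3 (adjusted p = 0.374). The dimmer probe set also had its highest value in TNKO tumour 3, and its groups overlapped.

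Among the antagonists, Dkk2, a Dickkopf protein that binds LRP co-receptors, was the only member with all 3 TNKO tumours below all WT tumours. It stood 17.65, 7.14 and 0 millionths above its lowest array (7.54) in TNKO tumours 1 to 3, against 286, 218 and 379 in WT tumours 1 to 3. The TNKO tumours lay close together, with an SD of 8.88e-06 against 8.04e-05 in WT tumours (n = 3 each). The difference was -0.000286 (SE 4.36e-05), or -5.00 residual SDs, with an adjusted p of 0.0849 by limma and an unadjusted p of 0.00173. With each array left out in turn the difference ran from -0.000324 to -0.000244, and over all 12 alternatives its adjusted p ran from 0.061 to 0.989.

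Sfrp2, a secreted Frizzled-related protein that binds Wnt ligands and is prominent in fibroblasts, differed most in deposited units. It stood 4671, 5904 and 2212 millionths above its lowest array (9.83) in TNKO tumours 1 to 3, against 1185, 1984 and 0 in WT tumours 1 to 3. All TNKO tumours were above all WT tumours, with TNKO tumour 3 just over WT tumour 2. The difference was 0.00321 (SE 0.00115), or 2.13 residual SDs, with an adjusted p of 0.229 by limma. It kept its direction under all 12 alternatives (adjusted p = 0.163 to 0.989). As its groups did not overlap, only quantile normalization and subtracted array medians could have turned it. Only 0.724% of all probe sets spanned as much over the 6 arrays. The fibroblast markers had WT tumour 3 as their lowest array in 7 of 8 genes, as Sfrp2 did, and 7 of the 8 had a higher TNKO mean, including the matrix proteoglycan gene Lum (9.509, 9.513 and 9.504 in TNKO tumours, against 9.505, 9.506 and 9.489 in WT tumours; adjusted p = 0.46). The exception was the proteoglycan gene Dcn, lower in TNKO hosts by limma at an unadjusted p of 0.00387 (difference -4.57e-05, adjusted p = 0.104) and the only one of the 8 whose groups did not overlap. Adipocyte markers had a higher TNKO mean in 5 of 5 and endothelial markers in 6 of 6, with WT tumour 3 the lowest array in 5 of each. Of all genes 57.6% had a higher TNKO mean, and WT tumour 3 was the lowest array in 3922 of 18193. TNKO tumour 2, the highest for Sfrp2, was the highest in 5 of 8 fibroblast genes, against 3754 of 18193 genes. It was the highest in 2 of 6 T cell genes and in 0 adipocyte, 0 endothelial and 0 smooth muscle and pericyte genes. TNKO tumour 1 was the highest in 5 of 5 adipocyte and 6 of 6 endothelial genes, against 3624 of 18193 genes. The part of fibroblast, adipocyte or endothelial content in the Sfrp2 values was not tested.

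Sfrp1, of the same family, was read by 5 probe sets that did not all point one way. The brightest stood 149, 162 and 67.8 millionths above its lowest array (7.07) in TNKO tumours 1 to 3, against 206, 65.7 and 0 in WT tumours 1 to 3. The groups overlapped (difference 3.56e-05, SE 6.32e-05, limma, adjusted p = 0.806). Of the 4 dimmer probe sets 3 had a higher TNKO mean and 1 a lower one. Among them 1438620_x_at, whose suffix marks probes that may also bind other transcripts, had groups that did not overlap, at 102, 111 and 64.7 millionths above its lowest array (6.46) in TNKO tumours, against 46.5, 20.5 and 0 in WT tumours (2.93 residual SDs, limma, adjusted p = 0.153). What all 5 shared was the lowest tumour, WT tumour 3.

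That tumour was the lowest array in 8 of the 10 antagonist probe sets and 2 of the 10 target probe sets, against 19.6% of all probe sets. The 8 came from Sfrp1 (5), Dkk3 (2) and Sfrp2 (1), so they are not independent.

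Dkk3, a divergent Dickkopf family member, differed little. Its brighter probe set stood 1.68, 0.22 and 9.17 millionths above its lowest array (7.67) in TNKO tumours 1 to 3, against 5.09, 3.75 and 0 in WT tumours 1 to 3. TNKO tumour 3 was the highest and the groups overlapped (difference 7.49e-07, SE 2.96e-06, limma, adjusted p = 0.922). In the dimmer probe set the difference was 1.71e-05 (adjusted p = 0.506).

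Wif1, a secreted inhibitor that binds Wnt ligands, was set apart by 1 tumour. It stood 0, 33.3 and 1886 millionths above its lowest array (5.54) in TNKO tumours 1 to 3, against 102, 254 and 76.5 in WT tumours 1 to 3. TNKO tumour 3 lay above every other tumour, while TNKO tumours 1 and 2 lay below every WT tumour. The difference was 0.000496 (SE 0.000585, limma, adjusted p = 0.695) with all arrays, and -0.000128 without TNKO tumour 3 (adjusted p = 0.398), so its sign rested on that tumour.

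**Figure D2:**
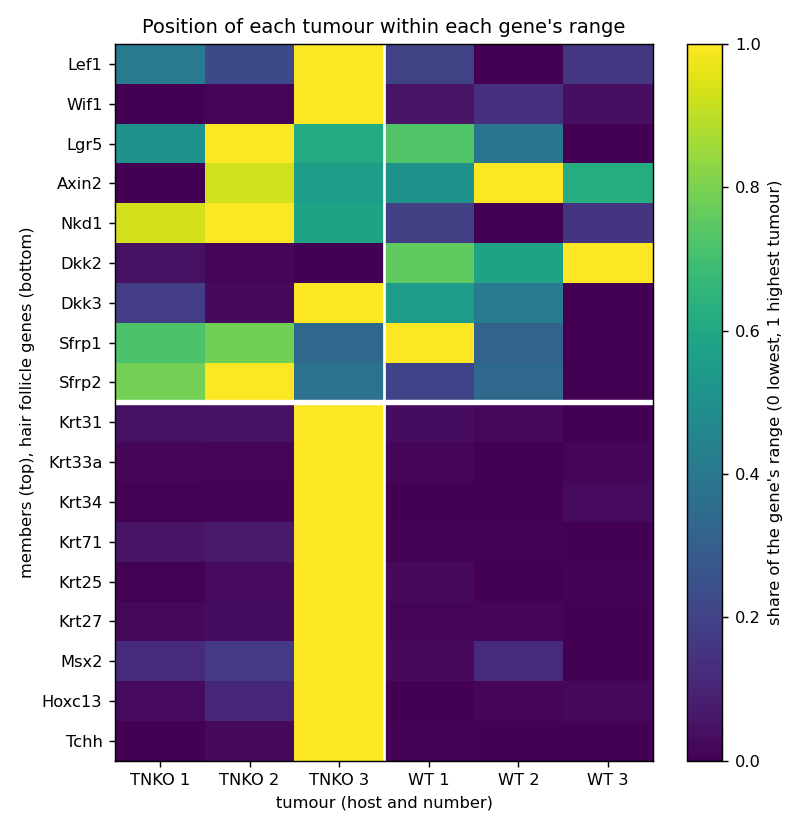
Position of each tumour within the range of each gene (0, the lowest tumour; 1, the highest), for the brightest probe set of the 9 members above the white line and 9 hair follicle genes below it, with TNKO tumours left of WT tumours. TNKO tumour 3 is the highest in all 9 hair follicle genes and, among members, in Lef1, Wif1 and Dkk3.

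The tumour in which Wif1 and Lef1 were highest was also the highest in 9 of 9 hair follicle genes. Over the member probe sets it was the highest in 6 of 20, both Lef1 and both Dkk3 probe sets, Wif1 and 1 of Nkd1, against 15.5% of all probe sets. Tchh, the hair sheath protein trichohyalin, stood at 5.51, 5.66 and 11.57 in TNKO tumours 1 to 3, against 5.55, 5.51 and 5.49 in WT tumours 1 to 3. Krt25, a hair sheath keratin, stood at 6.14, 6.21 and 9.21 in TNKO tumours, against 6.19, 6.12 and 6.14 in WT tumours. Hoxc13, a hair follicle transcription factor, stood at 6.1851, 6.1854 and 6.1884 in TNKO tumours, against 6.1850, 6.1851 and 6.1851 in WT tumours. Interfollicular epidermis genes had that tumour as the highest in 1 of 6. Mammary luminal epithelium genes had it as the highest in 3 of 6, and smooth muscle and pericyte genes in 2 of 6. Fibroblast genes had it as the highest in 1 of 8, skeletal muscle genes in 1 of 7, adipocyte genes in 0 of 5 and endothelial genes in 0 of 6. T cell genes, another possible source of Lef1 RNA, had it as the highest in 1 of 6, and their mean level was 6.60787, 6.60787 and 6.60791 in TNKO tumours 1 to 3, against 6.60791, 6.60788 and 6.60785 in WT tumours 1 to 3. Lgr5 and Axin2 did not follow the hair follicle genes: TNKO tumour 3 was neither the highest nor the lowest for either. The part of hair follicle or T cell content in the Wif1 and Lef1 values was not tested.

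**Figure D3:**
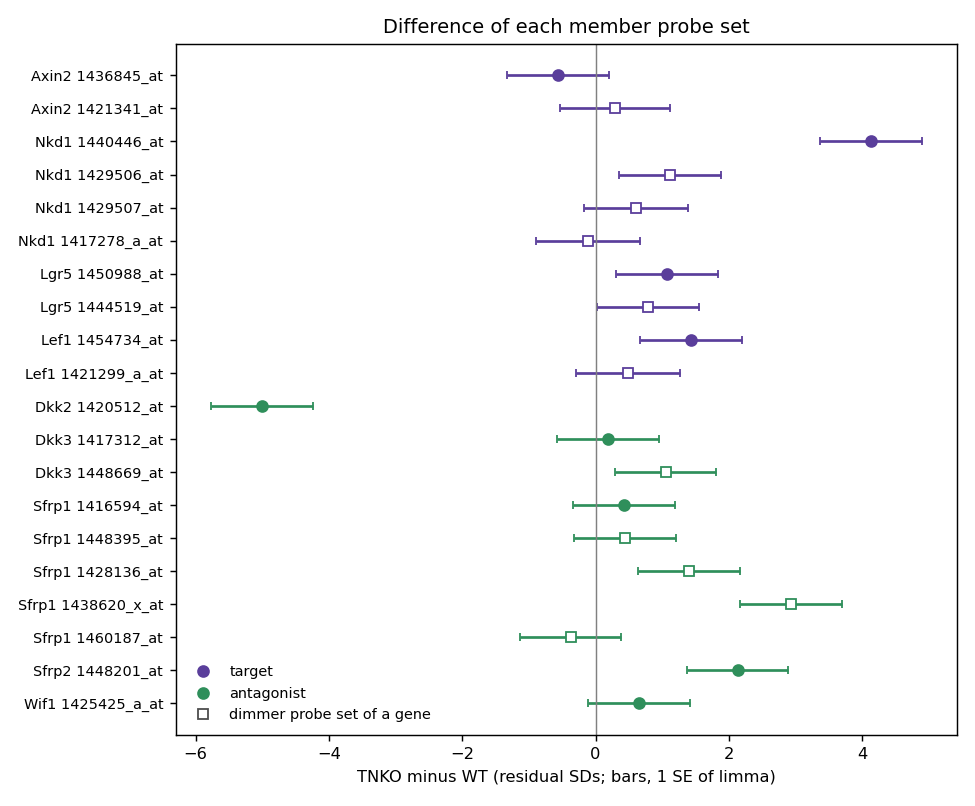
Difference of each of the 20 member probe sets, TNKO minus WT, in residual SDs with bars of 1 SE from limma. Filled circles are the brightest probe set of a gene and open squares its dimmer ones; the differences run from -5.00 (Dkk2) to 4.13 (Nkd1).

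Targets and antagonists both had mostly higher TNKO means as deposited. By brightest probe set, 3 of 4 targets and 4 of 5 antagonists had a higher TNKO mean, against 57.6% of all genes. The median difference was 1.25 residual SDs for targets and 0.43 for antagonists, against 0.28 over all genes. The difference between the lists was not tested. As the plot of differences by probe set shows, the member that departed most was on either side: Nkd1 among targets and Dkk2, with the opposite sign, among antagonists. Other scalings of the arrays moved the common level: the median difference of all probe sets was 9.97e-08 as deposited, -0.000538 after quantile normalization and -0.000782 with array medians subtracted. With those scalings 4 of 4 targets were lower, while 3 and 4 of the 5 antagonists were. Sfrp2 alone among the members' brightest probe sets differed by more than either shift, and it kept its higher TNKO mean. Dkk2 and Axin2, lower as deposited, could not be turned by a downward shift, and Wif1 turned with medians subtracted only.

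The rest of the pathway was read from 89 further genes in 7 lists. By limma 0 of them had an adjusted p under 0.05, against 22 of 18193 genes (0.121%), and 23 had an unadjusted p under 0.05, 9 higher and 14 lower in TNKO hosts, against 18.4% of all genes. Of the 18193 genes, 1818 were higher and 1534 lower at that unadjusted p. Of 19 Wnt ligand genes 3 had an unadjusted p under 0.05. Wnt5a, a ligand known mostly for signalling without beta-catenin, stood at 10.7905, 10.7906 and 10.7906 in TNKO tumours 1 to 3, against 10.7909, 10.7910 and 10.7911 in WT tumours 1 to 3. The groups did not overlap (-5.01 residual SDs, adjusted p = 0.0848). Wnt7b differed by 2.74 and Wnt10b by -2.17 residual SDs.

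Of 17 receptor genes 7 had an unadjusted p under 0.05, 3 higher and 4 lower, against 18.4% of all genes. Ror1, a receptor for Wnt5a, differed by 4.40 residual SDs (adjusted p = 0.0986), the Frizzled gene Fzd9 by 6.12 and Fzd5 by -3.15. In deposited units the differences were minute for Fzd9 (2.11e-06, limma, adjusted p = 0.0879) and Fzd5 (-3.33e-06), against 0.000565 for Ror1. Among secretion factors and R-spondins 0 of 6 had an unadjusted p under 0.05. Wls, the carrier that takes Wnt proteins to the cell surface, differed by -1.34 residual SDs. Rspo4 differed by 1.16 and Porcn, which acylates Wnt proteins, by 0.86.

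Of 12 cytoplasmic pathway genes 7 had an unadjusted p under 0.05, against 18.4% of all genes, and 5 of the 7 were lower. The median difference of the 12 was -1.97 residual SDs, against 0.28 over all genes. Whether the list departed from the background was not tested. Apc, a scaffold of the destruction complex, differed by -7.59 residual SDs (adjusted p = 0.078), the kinase Gsk3b by -3.01 and the casein kinase Csnk1e by -2.98. The size in deposited units was minute for Apc (-2.12e-06). Among 10 nuclear factors 2 had an unadjusted p under 0.05. Pygo2, a beta-catenin co-activator, differed by 3.54 residual SDs, the co-repressor Tle2 by -2.83 and Bcl9l by -1.78.

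Of 15 other target genes 2 had an unadjusted p under 0.05, and 8 were lower. Cd44, a hyaluronan receptor, differed by -7.70 residual SDs (-4.19e-05, adjusted p = 0.0607), Sox9 by -2.06 and Nkd2, the paralogue of Nkd1, by 1.62. All 10 other secreted antagonist genes had a higher TNKO mean as deposited, 2 at an unadjusted p under 0.05. TNKO tumour 3 was the highest in 5 of the 10. Draxin differed by 3.76 residual SDs, Sfrp5 by 3.05 and Dkk1, the best known Dickkopf inhibitor, by 1.46. In deposited units these differences were 4.34e-06 for Draxin, 1.03e-05 for Sfrp5 and 4.31e-06 for Dkk1. The higher TNKO mean of these antagonists depended on the scaling: with either of the other scalings all 10 were lower, as were 88 of the 89 genes. The median difference of all probe sets was -0.000538 after quantile normalization and -0.000782 with array medians subtracted, far larger than the differences of these antagonists. The turn is therefore not particular to them.

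**Figure D4:**
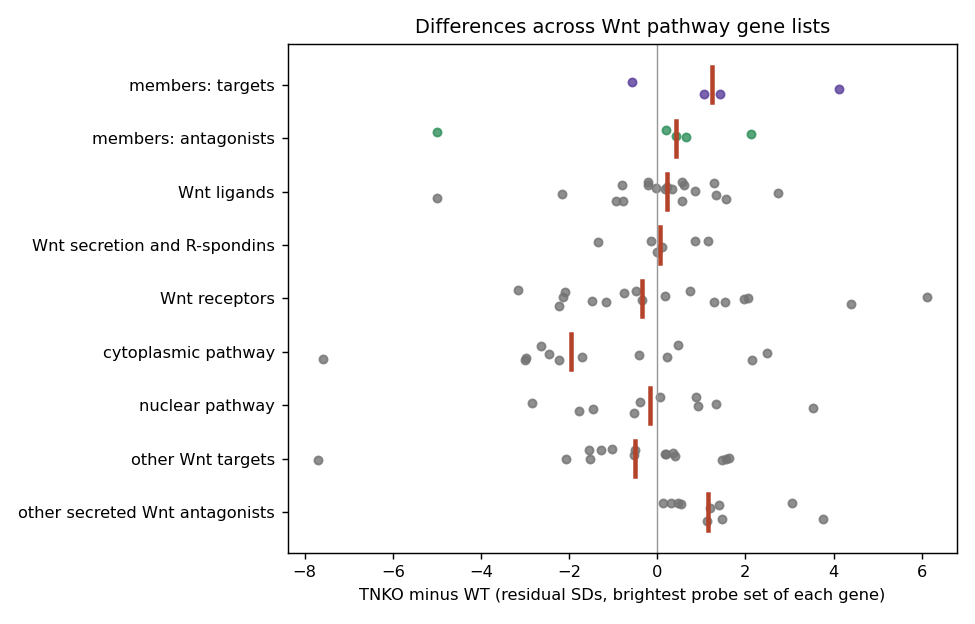
Difference of each gene, TNKO minus WT in residual SDs, for the member targets, the member antagonists and 7 lists of other Wnt pathway genes, each by its brightest probe set, with red bars at the list medians. The cytoplasmic list has the lowest median (-1.97), and the 10 other secreted antagonists all lie above 0 as deposited.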

How the data were processed

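Tumours from 3 TNKO and 3 WT hosts were profiled on 1-colour Affymetrix arrays from 100 ng of total RNA, per the labels' protocols. The deposited table holds 1 value per array for 45101 probe sets, taken as log2 from their range and the authors normalized them by an unstated method. The submitters' processing notes name R 2.7.2, and the summarization method is not given in the sources used here. The 64 probe sets of array controls were not tested. Of the rest 34945 had 1 gene symbol in the platform annotation (2016), 932 several and 9160 none, and the probe set of highest mean stood for a gene. Symbols of members were checked by gene identifier and 0 changed. TNKO minus WT was fitted with limma 3.58.1 in R 4.3.3 (lmFit, eBayes, no covariates, two-sided), with Benjamini-Hochberg adjustment over 45037 probe sets and a threshold of 0.05, after a test on simulated data. Precision is limited by the number of arrays, which carry no read depth. The labels call the samples biological replicates. The arrays of a pair shared 21 to 43 identical values. Members, lists and the rule for named genes (all members, Tnc, up to 3 genes per pathway list by difference in residual SDs, and markers from among the brightest of their lists) were chosen with earlier results of these data known. Dimmer markers (Tchh, Hoxc13, Lum, Dcn, Krt19) were named after their values were seen. Of the markers, Trac and Plin1 were not matched. The marker lists were fibroblast, hair follicle, interfollicular epidermis, mammary luminal epithelium, T cell, skeletal muscle, adipocyte, endothelial, and smooth muscle and pericyte. As alternatives, the fit was repeated with an eBayes trend, quantile normalization, array medians subtracted, brighter probe sets only, a replicate block, the mean over a gene's probe sets and leaving out each array.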

Additional observations from a re-analysis of the deposited data

How the results depend on the processing

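With 3 arrays a group and differences of millionths of a unit, no statement here rests on a passed test. Over 106 refits of the 9 genes under 12 alternatives, 0 had an adjusted p under 0.05 and 90 kept their direction. Many of the 90 could not have turned. The eBayes trend, the replicate block and the limit to brighter probe sets leave a difference as it is. The mean over probe sets does so for a gene read by 1 probe set. The 90 is therefore no measure of stability. The count of member probe sets called was 0 under every alternative it was run for. The limma count over all probe sets (79 as reported) was 285 with only probe sets above the median level, 0 after quantile normalization (593 at an unadjusted p under 0.05) and 0 with a replicate block (7816 at an unadjusted p under 0.05), and ran from 0 to 73 with each array left out. With array medians subtracted that count was 68 (87 at an unadjusted p under 0.05). In residual SDs same-numbered arrays did not deviate together (correlations of 0.029, -0.016 and 0.0053 for numbers 1 to 3). As deposited the correlations were 0.175, -0.218 and -0.112, of mixed sign, and those of unlike-numbered arrays ran from -0.337 to 0.281. The numbers were not taken as pairs. The block left 0 calls over all probe sets, so it could not add a call of a member. Targets with a lower TNKO mean numbered 4 after quantile normalization and 4 with array medians subtracted, against 1 as reported, and 0 to 1 with each array left out. Antagonists numbered 3 and 4 under those scalings, against 1 as reported, and 1 to 3 with each array left out. With array medians subtracted the differences turned to -0.000746 for Nkd1, -0.000635 for Lgr5, -0.000498 for Lef1, -0.000781 for Dkk3, -0.000746 for Sfrp1 and -0.000286 for Wif1. After quantile normalization they turned to -0.000763 for Nkd1, -0.000418 for Lgr5, -0.000128 for Lef1, -0.000337 for Dkk3 and -0.000715 for Sfrp1. With array medians subtracted the turns follow from the common shift of -0.000782. Quantile normalization moved genes by unlike amounts: Dkk3 from 7.49e-07 to -0.000337 and Sfrp1 from 3.56e-05 to -0.000715. What turned the genes under that scaling was not tested. Leaving out each array moved Axin2 over a range of -2.89e-06 to 2.26e-07 (above 0 without TNKO tumour 1), Dkk3 over -1.99e-06 to 2.48e-06 (below 0 without TNKO tumour 3, and at -7.24e-07 without WT tumour 3), Sfrp1 over -9.70e-06 to 9.34e-05 (below 0 without WT tumour 3) and Wif1 over -0.000128 to 0.000816 (below 0 without TNKO tumour 3), and the cause was not tested. Lgr5 kept its sign over 6.56e-05 to 0.000225 and Lef1 over 0.000131 to 0.000393, both moving by over 1.5 times. For Lef1, whose groups did not overlap, leaving out an array could not turn the sign. Member probe sets with groups apart numbered 7 without TNKO tumour 3, against 5 with all arrays, an alternative chosen after seeing the data. Dim Lef1 and Wif1 gave no value among the brighter probe sets.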

Other observations

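The promoter windows of Lef1 and Wif1 share the letters CCTTTGGGTG, their longest common run, beginning 162 bases before the start in both when the most upstream Lef1 start is used. These letters, on either strand, occurred in 35 of 32851 windows of all genes (0.107%). That share is for this run only, which was found by comparing the Lef1 and Wif1 windows. How often a pair of windows shares any run of 10 bases was not counted, so the share does not say how rare such a match is. The match was noticed in the printed sequences, so it is a description of letters and carries no test.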
